A study of Mus musculus with 6 samples.

Results

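Basal keratinocytes of the tongue hold on to their basement membrane through a set of proteins, and the genes of 9 of these were followed here in mice with and without a Cre recombinase directed at Ire1α. The 9 genes were chosen by name, with earlier results of these data known. All 9 were found among the 55421 genes of the deposited table. They are Itga6, Itgb4, Col17a1, Dst and Plec of the hemidesmosome, Lama3 and Lamb3 of laminin-332, and Frem2 and Fras1 of the Fraser complex. The collagen of the anchoring fibril, Col7a1, was not among them, so the set holds no anchoring fibril gene proper. Its values are given with the partners.

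Hemidesmosomes are plaques at the base of basal epithelial cells. Integrin α6β4 and collagen XVII cross the membrane, bind laminin-332 outside the cell, and are tied by the plakins plectin and BPAG1 to the keratin 5 and keratin 14 filaments inside it. FRAS1 and FREM2 are large proteins made by epithelial cells that form a complex in the basement membrane, and their loss causes blistering in the embryo and the malformations of Fraser syndrome.

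Each of the 6 libraries came from the tongue epithelium of 1 mouse. The 3 WT mice were IRE1F/F, which means that both copies of the Ire1α gene carried loxP sites, and had no Cre. The 3 KO littermates were K14CreERT2 IRE1 F/F, with the same floxed alleles and a tamoxifen-dependent Cre under the promoter of keratin 14, a keratin of basal cells. Both groups received tamoxifen for 4 days, with the tissue taken on day 5, and ages are not given in the labels. Ire1α loss, Cre activity and the combination of Cre with tamoxifen cannot be told apart, since no group had Cre with intact Ire1α. The epithelium was peeled off after 10 minutes in collagenase and neutral protease at 37 °C, in both groups.

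Libraries held 4606309 to 6286153 reads. The 3′-end kit makes 1 tag per mRNA, and values are the authors' normalised read counts, given as mean ± SD over the 3 mice of a group. Where 3 values of a group are listed, they stand in the order of replicates 1, 2 and 3. The targeted gene Ern1 gave 102, 105 and 77.1 in the WT mice and 78.0, 117 and 123 in the KO mice. Its 3′ tag may lie outside the deleted exons, which the labels do not name, so it does not check the genotype. The keratinocyte label was borne out by keratin 13 (Krt13), at 228829 to 328701 in all libraries, and keratin 4 (Krt4), at 112709 to 240543, and the summed suprabasal markers overlapped, from 493751 to 687509 in WT and from 488827 to 720136 in KO. KO replicate 1 stood apart by its muscle and fibrillar collagen transcripts. The 11 skeletal muscle markers summed to 1744 in that library, against 89.5 to 249.6 in WT and 72.4 and 319 in KO replicates 2 and 3, with Acta1 and Tnnc2 listed at 0 in all libraries. The fibroblast collagen Col1a1 was 189.6 in KO replicate 1 and between 3.45 and 14.3 in the other 5 libraries.

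In KO epithelium Itgb4 rose and Frem2 fell, and the other 7 genes did not pass the test over all genes (limma with Benjamini-Hochberg adjustment at 0.05). That is 2 of 9 genes called, where 1.80% of the 10987 genes tested were called, 1.22% as higher and 0.583% as lower. Since the 9 genes were chosen with earlier results known, their share beside that of all genes is a description, not a test. All 9 passed the filter on low values, which asks for 10 or more in 3 or more of the libraries. With edgeR on the recovered reads the same 2 genes passed, where 1.73% of all genes were called, 1.14% as higher and 0.592% as lower. DESeq2 added Itga6 to them, 3 of 9, where 3.35% were called, 1.97% as higher and 1.38% as lower. The groups did not overlap for 4 of the 9 genes, higher in KO for Itga6 and Itgb4 and lower for Frem2 and Fras1. Over all genes tested the groups did not overlap in 19.1%, 9.84% being higher in KO and 9.25% lower. Log2 fold changes were positive for 7 genes and negative for 2, with a median of 0.51 over the 9 beside -0.01 over all genes tested. The genes called numbered 1, Frem2, when WT replicate 1, WT replicate 2 or KO replicate 1 was left out.

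**Figure D1:**
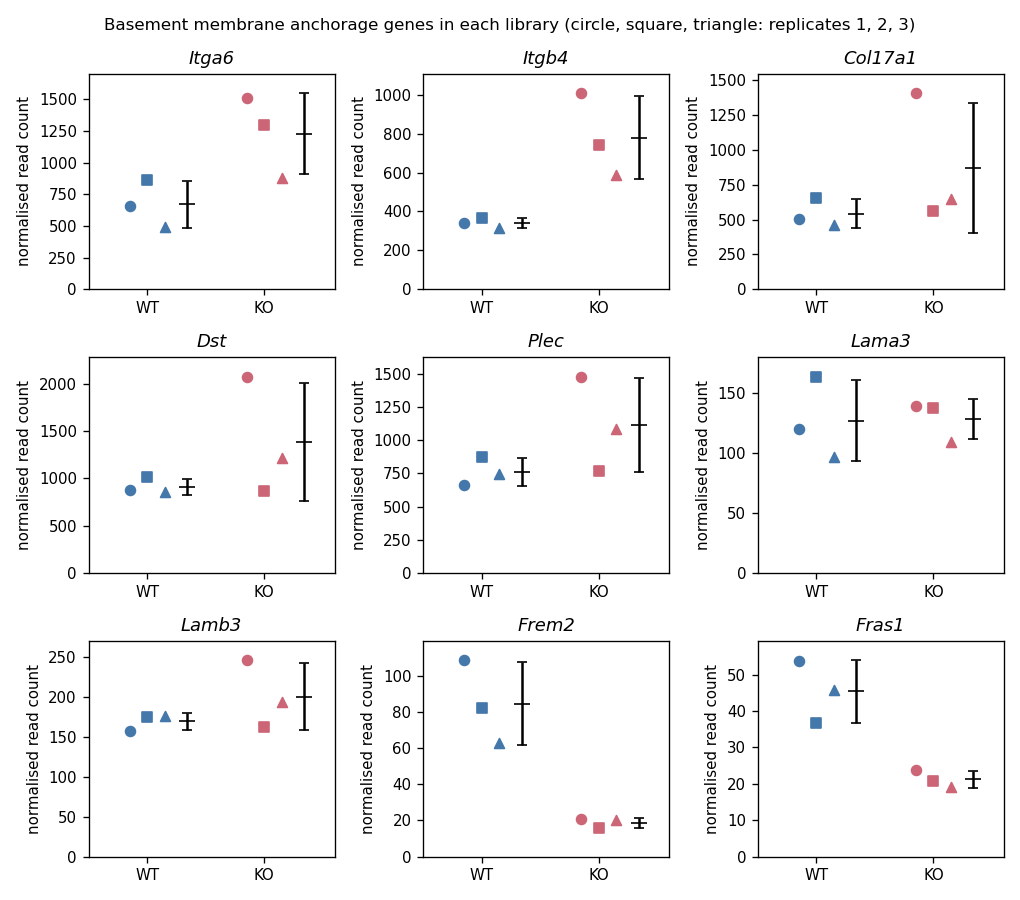
Normalised read count (vertical axes, from 0) of each of the 9 genes in the 3 WT and 3 KO libraries, 1 panel a gene, with circles, squares and triangles for replicates 1, 2 and 3 and bars for mean and SD. Itgb4 lies between 317 and 366 in WT and between 589 and 1008 in KO, Frem2 between 62.7 and 108 in WT and between 15.5 and 20.6 in KO, and for Col17a1, Dst and Plec KO replicate 1 lies above the other 5 libraries.

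Itgb4 (ENSMUSG00000020758, chromosome 11, 115974709 to 116008412, plus strand, by GENCODE M21 on GRCm38) encodes the β4 subunit, whose long cytoplasmic tail recruits plectin and BPAG1. Its normalised read counts were 339, 366 and 317 in the WT mice and 1008, 742 and 589 in the KO mice. Every KO library lay above every WT library, and the WT libraries were close together while the KO libraries spread. The mean was 341 ± 24.2 in WT and 779.5 ± 212 in KO, a ratio of 2.29. On the log2(value + 1) scale the change was 1.16 ± 0.21 (SE), with a 95% interval from 0.70 to 1.62 (limma adjusted p = 0.0194). The summed basal keratinocyte markers were also higher in KO, at 54326 to 77238 beside 32013 to 47610 in WT. Krt14 alone gave 23878 to 40922 of the KO sums and 13185 to 15243 of the WT sums. The markers Krt15 and Trp63 went the other way, lower in every KO library than in any WT library. The part of basal cells in the rise of Itgb4 was not tested. In bulk tissue, more cells of a type and more RNA per cell cannot be told apart. Only 1.91% of tested genes had a higher log2 fold change. With edgeR on the recovered reads the adjusted p was 0.0200, and with DESeq2 8.95e-05. The limma call was lost without WT replicate 1 (adjusted p = 0.0517), without WT replicate 2 (0.0812) and without KO replicate 1 (0.0688), with log2 fold changes of 1.16, 1.21 and 0.96. Libraries carry names of 2 styles, numbers or letters, whose meaning is not given. Between number-named libraries (2 WT, 1 KO) the log2 difference of Itgb4 was 1.51, and between letter-named ones (1 WT, 2 KO) 1.06.

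Itga6 (ENSMUSG00000027111, chromosome 2, 71745616 to 71858416, plus strand) encodes the α6 subunit, the only α partner of β4. It gave 659, 863 and 494 in the WT mice and 1510.3, 1294 and 881 in the KO mice. The groups did not overlap, but the highest WT library, 863, lay just under the lowest KO library, 881. The mean was 672 ± 185 in WT and 1228 ± 320 in KO, and the log2 fold change of 0.87 ± 0.25 (SE), with a 95% interval from 0.31 to 1.43, did not pass (limma adjusted p = 0.132). DESeq2 on the recovered reads called it (adjusted p = 0.0339) and edgeR did not (0.145). In the authors' deposited table, which lists 341 genes or 1.57% of those above 0 in any library, 3 of the 9 genes appear. These are Itgb4 (log2 fold change 1.19, adjusted p = 7.64e-05), Itga6 (0.87, 0.0321) and Frem2 (-2.19, 3.41e-06), by the authors' deposited table.

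The pair was also compared within each library. Log2 Itgb4 minus log2 Itga6 was -0.94 ± 0.30 in WT and -0.65 ± 0.13 in KO, a shift of 0.29, smaller than the SD of the WT libraries (two-sided exact permutation test over libraries, p = 0.2, and 0.333 adjusted over the 5 pairs compared). With 3 mice against 3 that test cannot go below 0.1.

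Col17a1 (ENSMUSG00000025064, chromosome 19, 47646344 to 47692094, minus strand) encodes the transmembrane collagen XVII, the autoantigen BP180. It stood at 504, 658 and 461 in the WT mice and 1406, 559 and 645 in the KO mice. KO replicates 2 and 3 lay inside the WT range, and KO replicate 1 alone was high. The log2 fold change was 0.58, with a 95% interval from -0.11 to 1.26 (limma adjusted p = 0.466). Dst, which encodes BPAG1, and Plec, which encodes plectin, were also highest in KO replicate 1, with KO replicate 3 above the WT range. Dst (ENSMUSG00000026131, chromosome 1, 33908225 to 34308661, plus strand) gave 874, 1009.6 and 855 in the WT mice and 2075, 869.6 and 1214 in the KO mice. Plec (ENSMUSG00000022565, chromosome 15, 76170974 to 76232574, minus strand) gave 663, 876 and 742 in WT and 1478, 769.6 and 1088 in KO. The WT and KO libraries of both plakins overlapped. Their log2 fold changes were 0.51 each, with 95% intervals from -0.10 to 1.12 for Dst and from -0.02 to 1.03 for Plec (limma adjusted p = 0.465 and 0.386).

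Without KO replicate 1 the log2 fold changes of Col17a1, Dst and Plec were 0.17, 0.17 and 0.28. KO replicate 1 was the highest of the 6 libraries for 6 of the 9 genes, namely the 5 hemidesmosome genes and Lamb3, and it is the library in which muscle and fibrillar collagen transcripts were high. Plectin and dystonin are also made in muscle. The part of those transcripts in these values was not tested. KO replicates 2 and 3 lay above all 3 WT libraries for Itgb4, at 742 and 589, and for Itga6, at 1294 and 881. Without KO replicate 1 neither gene passed (limma adjusted p = 0.0688 for Itgb4 and 0.401 for Itga6).

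Dst and Plec are counted over several mRNA ends. GENCODE M21 gives Dst 14 coding transcripts whose 3′ ends fall in 7 groups more than 1000 bases apart, and Plec 21 transcripts in 5 groups. The epithelial BPAG1 isoform therefore cannot be separated from the nerve and muscle isoforms in these gene counts. Exons of Plec overlap those of Parp10 on the other strand, and the strand setting of the counting is not given. Frem2 and Fras1 each have 1 coding transcript. Log2 Dst minus log2 Plec was 0.27 ± 0.11 in WT and 0.27 ± 0.19 in KO (exact permutation test p = 1.0).

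**Figure D2:**
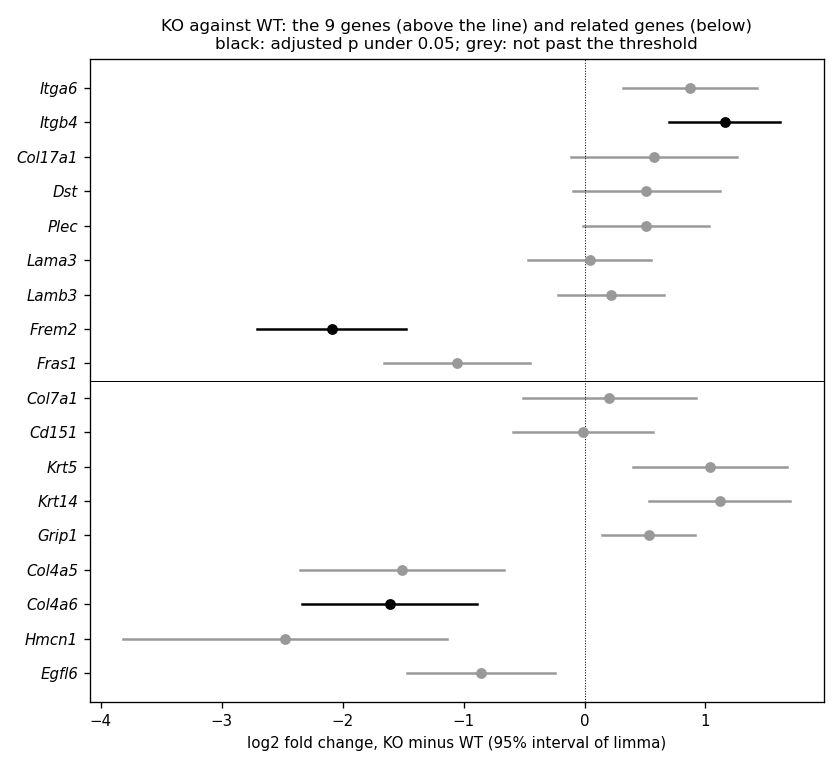
Log2 fold change of KO against WT (horizontal axis) with the 95% interval of limma for the 9 genes (above the line) and for 9 related genes (below), black where the adjusted p is under 0.05 and grey otherwise. Itgb4 (1.16) is the highest of the 9 and Frem2 (-2.09) the lowest, and of the related genes Col4a6 (-1.61) is black.

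Neither laminin gene passed the test. Lama3 (ENSMUSG00000024421) encodes the α3 chain of laminin-332, the ligand of integrin α6β4. It gave 119.7, 163 and 96.6 in the WT mice and 139, 137 and 109 in the KO mice. The KO libraries lay within the WT range. The mean was 126.5 ± 33.8 in WT and 128 ± 16.9 in KO, and the 95% interval of the log2 fold change ran from -0.47 to 0.55 (limma adjusted p = 0.961). Its sign turned with a weight per library and when KO replicate 1, KO replicate 2 or WT replicate 3 was left out. Lamb3 (ENSMUSG00000026639, chromosome 1, 193207699 to 193343878, plus strand), the β3 chain, gave 157, 175 and 176 in WT and 246, 162 and 193 in KO. The 95% interval of its log2 fold change was -0.22 to 0.66 (limma adjusted p = 0.700).

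Within libraries, log2 Lama3 minus log2 Lamb3 was -0.45 ± 0.38 in WT and -0.63 ± 0.34 in KO (two-sided exact permutation test p = 0.7, and 0.875 adjusted over the 5 pairs). The shift was smaller than the SD of either group.

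Frem2 (ENSMUSG00000037016, chromosome 3, 53513938 to 53657355, minus strand) encodes a membrane-anchored protein with a long extracellular part. It stood at 108, 82.0 and 62.7 in the WT mice and 20.6, 15.5 and 20.0 in the KO mice. The groups were far apart, and the KO libraries were close together. These values rest on 115, 94 and 48 reads in WT and 19, 18 and 21 in KO. In normalised units the exact Poisson 95% intervals of the WT libraries reached down to 46.2 and those of the KO libraries up to 32.1, for counting error only. The WT mean of 84.4 ± 22.9 was 4.51 times the KO mean of 18.7 ± 2.78. The log2 fold change was -2.09 ± 0.28 (SE), with a 95% interval from -2.71 to -1.47 (limma adjusted p = 0.00489), and 26 of the 10987 genes tested had a lower one. Whichever library was left out, the call held, with log2 fold changes from -2.28 to -1.89 and adjusted p up to 0.0315. It was -2.14 between number-named and -1.77 between letter-named libraries. Of the fibroblast markers, Dcn was also lower in KO, while the other 9 summed to 35.3 to 66.3 in WT and to 22.4, 38.1 and, in KO replicate 1, 598 in KO. Their part in the values of Frem2 and Fras1 was not tested.

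Fras1 (ENSMUSG00000034687, chromosome 5, 96373955 to 96784728, plus strand) encodes the partner of FREM2 in the complex. It gave 53.7, 36.6 and 45.7 in the WT mice and 23.8, 20.7 and 19.1 in the KO mice. Every KO library lay below every WT library. The reads were few, 35 to 57 in WT and 20 to 24 in KO, and the Poisson 95% intervals overlapped, reaching down to 26.4 in WT and up to 36.1 in KO. The mean was 45.4 ± 8.54 in WT and 21.2 ± 2.43 in KO, with a log2 fold change of -1.05 ± 0.27 (SE) and a 95% interval from -1.66 to -0.45. Over all genes it did not pass (adjusted p = 0.0944 by limma, 0.0957 by edgeR and 0.113 by DESeq2), and with a weight per library it did (0.0314). The differences were -0.87 and -1.16 within the number-named and the letter-named libraries.

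In all 3 WT libraries Frem2 exceeded Fras1 by more than in any KO library. Log2 Frem2 minus log2 Fras1 was 1.00, 1.14 and 0.45 in the WT mice and -0.20, -0.39 and 0.07 in the KO mice. The shift of -1.04 reached the smallest p that 3 against 3 allows (two-sided exact permutation test p = 0.1, and 0.333 adjusted over the 5 pairs).

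**Figure D3:**
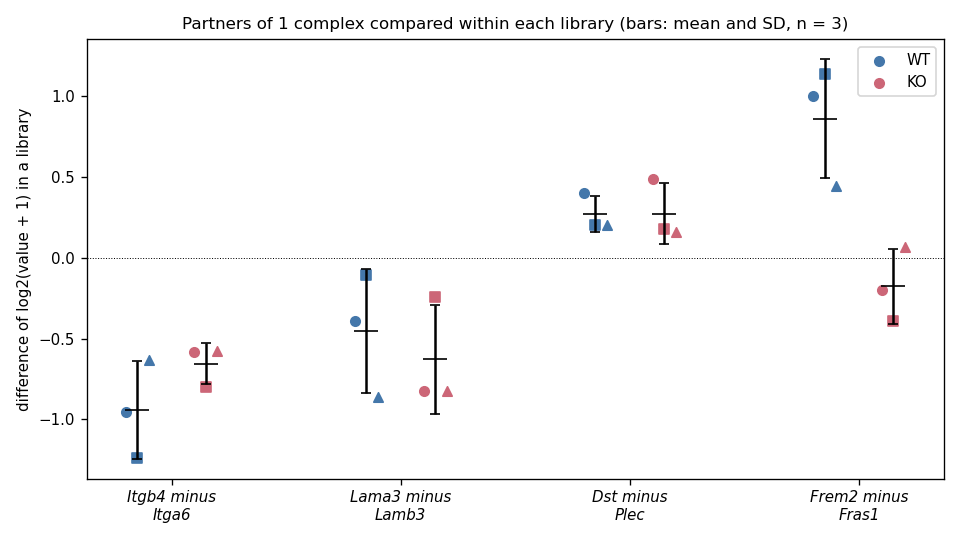
Difference of log2(value + 1) between 2 partners of a complex within each library (vertical axis), for 4 pairs, WT in blue and KO in red, with circles, squares and triangles for replicates 1, 2 and 3 and bars for mean and SD over 3 mice. The groups are apart only for Frem2 minus Fras1, at 0.86 ± 0.37 in WT and -0.18 ± 0.23 in KO.

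Upstream sequence was at hand in RefSeq (GRCm38.p6) for 4 of the 9 genes, namely Dst, Lamb3, Frem2 and Col17a1. The 250 bases before a RefSeq start are shown for Frem2, which fell, and for Col17a1, a hemidesmosome gene that did not pass. RefSeq starts can lie inside the gene spans given above. By those spans the Dst and Lamb3 windows lie inside the gene and the Col17a1 window partly inside. Capitals mark every match to the motifs searched on both strands.
Frem2, chr3:53657356-53657605, minus strand: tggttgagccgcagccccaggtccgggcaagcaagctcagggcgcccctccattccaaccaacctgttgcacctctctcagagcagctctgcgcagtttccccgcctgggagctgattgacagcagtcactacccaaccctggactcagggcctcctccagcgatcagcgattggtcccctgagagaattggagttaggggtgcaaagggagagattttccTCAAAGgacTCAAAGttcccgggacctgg
Col17a1, chr19:47692043-47692292, minus strand: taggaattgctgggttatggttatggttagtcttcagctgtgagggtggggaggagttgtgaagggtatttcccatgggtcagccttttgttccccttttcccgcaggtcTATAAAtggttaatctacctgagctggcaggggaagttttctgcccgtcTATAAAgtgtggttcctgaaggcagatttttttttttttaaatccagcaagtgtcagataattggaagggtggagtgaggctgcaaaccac

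The motifs were the UPR element core TGACGTG and the ER stress element (CCAAT and CCACG, 9 bases apart), which are letters bound in the unfolded protein response, the AP-1 site TGANTCA, the TCF/LEF core CTTTGA, the GC box GGGCGG and the TATA box TATAAA. The Frem2 window held the TCF/LEF core 2 times, both read as TCAAAG on the strand shown, and the core occurs in 13.8% of the 32851 windows of that length. Col17a1 held the TATA box 2 times, and it occurs in 12.4% of windows. Of the 2 Dst windows, 1 held 4 GC boxes (a GC box is in 32.7% of windows) and the other none of the motifs, and neither did the 2 Lamb3 windows hold any. The UPR element core (1.65% of windows), the ER stress element (0.113%) and the AP-1 site (6.75%) were in none of the windows of these 4 genes. A match is a run of letters and does not show binding.

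Related genes of the basement membrane zone were described in 6 lists, as counts beside the 1.80% called over all genes. The lists too were chosen with earlier results of these data known, so the counts are no test of them. In the list of hemidesmosome partners and other adhesion genes 0 of 12 tested genes passed with limma or edgeR, 2 with DESeq2 (Krt5 and Krt14, both higher), 5 had an unadjusted limma p under 0.05 (13.5% over all genes), and the median log2 fold change was 0.37. Krt14, the keratin whose promoter drives the Cre, gave 13185, 13505 and 15243 in the WT mice and 40922, 28447 and 23878 in the KO mice. The groups did not overlap. Its log2 fold change of 1.12 (95% interval 0.54 to 1.70) did not pass (limma adjusted p = 0.0694), and did with DESeq2 (6.66e-05), robust variance moderation (0.0371), a weight per library (0.0386), equal totals (0.0393) and quantile normalisation (0.0415). Krt5, its partner in the filament that plectin and BPAG1 hold, was 5217 ± 1386 in WT and 10824 ± 3419 in KO, at a log2 fold change of 1.04 (adjusted p = 0.118 by limma, 0.0392 with the replicate block and 0.00565 by DESeq2). Cd151, the tetraspanin that binds integrin α6, was 241 ± 93.7 and 230.5 ± 40.8, with a 95% interval of the log2 fold change from -0.59 to 0.57 (limma adjusted p = 0.992).

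In the list of other laminin chains and of anchoring fibrils and filaments 0 of 10 tested genes passed with any of the 3 tools, 2 at an unadjusted p under 0.05, with a median of 0.17. Col7a1, the anchoring fibril collagen, gave 45.2, 52.4 and 97.9 in the WT mice and 93.2, 51.7 and 74.3 in the KO mice. Its groups overlapped throughout, and the 95% interval ran from -0.51 to 0.92 (limma adjusted p = 0.846). Lad1, which encodes the anchoring filament protein ladinin, was 1739 ± 251 in WT and 2359 ± 413 in KO, at a log2 fold change of 0.43 (adjusted p = 0.367 by limma).

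Among Fraser complex partners 0 of 6 tested genes passed with limma or edgeR and 1 with DESeq2 (Hmcn1, lower). An unadjusted p under 0.05 was found for 4 (13.5% over all genes), and 4 did not overlap between the groups (19.1%). Hmcn1 and Egfl6, lower in KO, and Grip1, higher, were in both counts. Tnc, higher (log2 fold change 1.62), was only in the first, and Vwa2, lower (-0.31), only in the second. The median log2 fold change of the 6 was -0.47. Grip1, the PDZ protein that carries FRAS1 and FREM2 to the cell surface, gave 606, 685 and 626 in the WT mice and 814, 1088 and 882 in the KO mice. It lay higher in every KO library, opposite to Frem2 and Fras1, with a log2 fold change of 0.53 that did not pass (limma adjusted p = 0.184). Hmcn1, which encodes hemicentin-1, a large extracellular matrix protein, gave 17.9, 35.8 and 28.7 in WT and 6.50, 0.862 and 7.62 in KO. Its log2 fold change was -2.47 with a 95% interval from -3.82 to -1.13 (adjusted p = 0.0811 by limma and 0.00619 by DESeq2). The KO values rest on few reads, and that of KO replicate 2 is 1 read, where 3 reads are worth 2.59. Egfl6, an EGF-repeat matrix protein, was 145 ± 17.1 in WT and 83.6 ± 35.7 in KO, at a log2 fold change of -0.86 (adjusted p = 0.180 by limma). Frem1, the third large protein of the complex, was listed at 0 in 3 libraries and at 0.862 to 0.953 in the other 3, where 3 reads are worth 2.59 to 3.92, so no change in it could be seen at this depth.

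Of 10 tested genes in the list of other basement membrane components 1 fell and 9 did not pass, with a median of -0.11. An unadjusted p under 0.05 was found for 5 (13.5% over all genes), and those 5 did not overlap between the groups (19.1%). They were Col4a5, Col4a6 and Smoc2 (log2 fold change -1.45), lower in KO, and Col18a1 (1.10) and Tinagl1 (0.84), higher in KO, all but Col4a6 being named after their values were seen. The gene that fell was Col4a6, the α6 chain of collagen IV, which forms a network with the α5 chain under epithelia. It gave 46.2, 90.8 and 57.5 in the WT mice and 26.0, 14.7 and 20.0 in the KO mice, with no overlap. Its log2 fold change was -1.61 ± 0.33 (SE) (limma adjusted p = 0.0368, edgeR 0.0371, DESeq2 0.00224). The call was lost in 5 of the 6 fits that leave out 1 library, all but that without WT replicate 1 (highest adjusted p = 0.150), with equal totals (0.0562), with the name style as a covariate (0.104) and with the replicate block (0.0747). Col4a5, the neighbour of Col4a6 on the chromosome and its partner chain, gave 80.1, 88.1 and 41.8 in WT and 28.2, 31.0 and 13.3 in KO, without overlap, at a log2 fold change of -1.51 (adjusted p = 0.0883 by limma and 0.00933 by DESeq2). The authors' deposited table lists Col4a5 and Col4a6 with log2 fold changes of -1.54 and -1.70 (adjusted p = 0.0142 and 0.00393).

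The remaining lists held 0 called genes with limma, edgeR or DESeq2. Of 7 tested proteases that cut these proteins or their partners, 0 had an unadjusted p under 0.05, with a median of -0.19. The lowest p were those of Adam17, which sheds the ectodomain of collagen XVII, at 153 ± 11.5 in WT and 174 ± 8.95 in KO (adjusted p = 0.705 by limma), and Plau, the urokinase plasminogen activator, at 27.2 ± 20.1 and 13.0 ± 6.70 (0.589). Of 4 tested other plakins and linkers, 0 had an unadjusted p under 0.05, with a median of 0.10. Among them were Dsp, the desmosomal plakin desmoplakin, at 20496 ± 2401 in WT and 25081 ± 3377 in KO, and Ppl, or periplakin, at 5086 ± 1441 and 4288 ± 570 (limma adjusted p = 0.668 and 0.773).

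**Figure D4:**
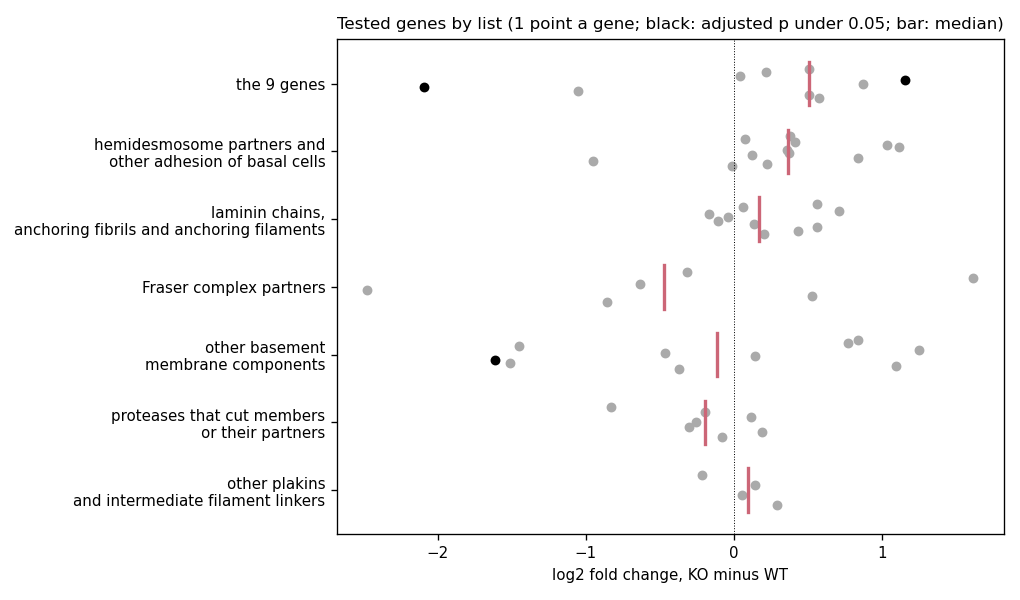
Log2 fold change of KO against WT (horizontal axis) of the 9 genes and of the tested genes of 6 lists, 1 point a gene, black where the limma adjusted p is under 0.05, with a bar at each median. Both Fraser complex genes lie left of 0 among the 9, and the black point left of 0 in the list of other basement membrane components is Col4a6.

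Basal keratinocyte markers other than these genes were higher in sum in KO. The 10 markers include Krt5 and Krt14, and Cav1 was listed at 0 throughout. Krt14 was the largest part of the sum in every KO library. In WT replicate 3 the marker Sfn was larger than Krt14, at 20718 beside 15243. Sfn gave 6579, 7822 and 20718 in WT and 15285, 10661.5 and 20835 in KO, so its groups overlapped. Of 8 tested markers 2 rose, Cdh3, or P-cadherin, from 58.6 ± 2.46 to 133 ± 44.7 (limma adjusted p = 0.0498), and Igfbp2 from 957 ± 82.2 to 1889.7 ± 449 (0.0468). Cdh3 did not pass in any of the 6 fits that leave out 1 library and Igfbp2 passed in 1, without KO replicate 3 (highest adjusted p = 0.143 and 0.182). Of the 8 markers edgeR called 0 (Cdh3 0.0505, Igfbp2 0.0515) and DESeq2 called 5, 4 as higher and 1 as lower. Over all genes tested limma called 1.80%, edgeR 1.73% and DESeq2 3.35%. This list too was chosen with earlier results of these data known, so its counts are no test. With limma, Cdh3 was also lost with a pseudocount of 5 (0.0509), quantile normalisation (0.0519), the replicate block (0.0575), equal totals (0.0982) and the name style as a covariate (0.137). Igfbp2 was lost with a weight per library (0.0606), the name style as a covariate (0.0643) and equal totals (0.0829). The markers were not of one direction. Krt15 and Trp63, basal genes named after their values were seen, lay the other way, at -1.25 and -0.58 on the log2 scale (adjusted p = 0.123 and 0.170 by limma). DESeq2 called Krt15 as lower (0.0199) and not Trp63 (0.140), and the authors' deposited table lists Krt15 at -1.10 (adjusted p = 0.0188).

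Markers of other cell types, some of which make these proteins too, were summed in each library. The 8 endothelial markers summed to 24.8 to 37.7 in WT and 50.5 to 74.8 in KO, without overlap, and Schwann cell and nerve markers to 394 to 577 and 407 to 558, nearly all of it Mbp. The 10 fibroblast markers summed to 1395 to 1891 in WT and 217 to 1128 in KO, and most of the WT sum was Dcn, or decorin. Without Dcn the sums of the groups overlapped, and the other tested members, Col1a1 and Col1a2, had log2 fold changes of 1.01 and 1.15 that did not pass (adjusted p = 0.742 and 0.702 by limma). Both collagens were high in KO replicate 1 alone, at 189.6 and 235. They were at 3.45 and 10.3 in KO replicate 2 and at 14.3 and 7.62 in KO replicate 3. With 1 library left out their log2 fold changes went as low as -0.50 and -0.38. Dcn fell from 1614 ± 266 to 423 ± 198 (limma adjusted p = 0.0152), and its call was lost without WT replicate 2 (0.0542) and with the name style as a covariate (0.0697). Leukocyte markers summed to 383 to 629 and 420.3 to 669.6, salivary gland markers to at most 52.4 and taste bud markers to at most 18.1 in any library. The part of these cells in the values above was not tested.

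The genes whose values were most like those of Itgb4 over the 6 libraries were, of all genes tested, Krt14, Fam114a1 and Fads2, with root mean square differences of 0.12, 0.13 and 0.13 log2 units after centring each gene on its mean. Fads2, the Δ6 fatty acid desaturase, was 44.2 ± 1.67 in WT and 117 ± 32.8 in KO. For Frem2 the most alike were Adamtsl1, Sema3d and Abo, with 0.15, 0.24 and 0.27 log2 units. Adamtsl1, a secreted ADAMTS-like matrix protein, gave 248, 206 and 182 in the WT mice and 56.3, 43.1 and 42.9 in the KO mice, every KO library far below every WT library. Sema3d, a secreted semaphorin, was 6.82 ± 2.23 in KO beside 27.9 ± 5.17 in WT. Since these genes were picked for likeness over the same 6 libraries, their differences between WT and KO follow from the choice.

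**Figure D5:**
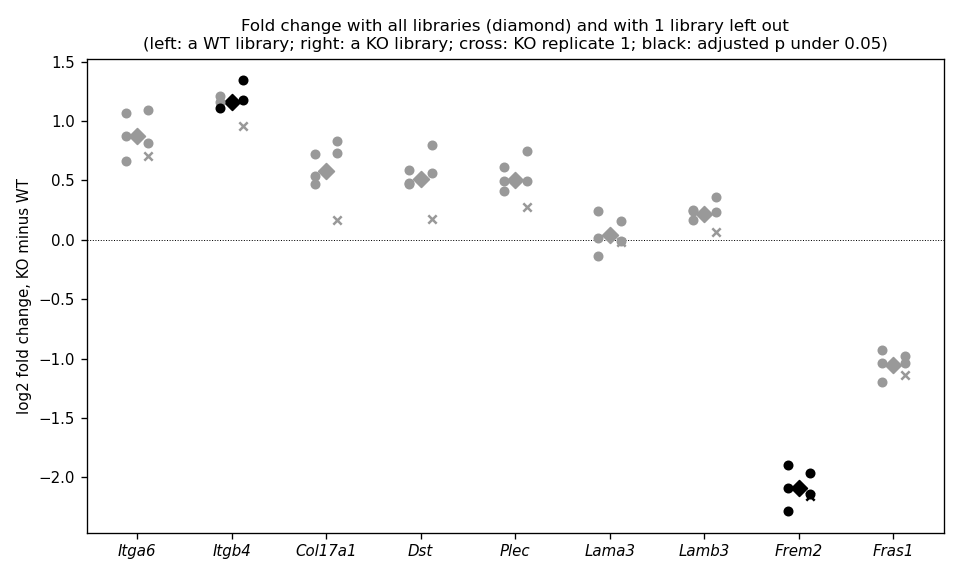
Log2 fold change of KO against WT (vertical axis) of each of the 9 genes with all 6 libraries (diamond) and with 1 library left out, WT libraries to the left and KO libraries to the right, a cross for the fit without KO replicate 1, and black where the limma adjusted p is under 0.05. Frem2 is black in each fit, between -2.28 and -1.89, and the crosses of Col17a1, Dst and Plec lie lowest among their fits, at 0.17, 0.17 and 0.28.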

How the data were processed

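The authors deposited 1 table with the normalised read count of each gene in each of the 6 libraries, a signal on a linear scale per the file headers. The submitters' processing notes name FastQC, STAR, featureCounts and DESeq2, and give no version. Build, annotation and strand setting were not stated in the sources used here. A second deposited table lists the genes the authors called, with a log2 fold change, a score (the Wald statistic), a p-value and a q-value for each, per the file headers. Libraries were matched to samples by their names, and 0 value columns were left unmatched.

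Every value was a whole multiple of 1 step per library (100% to within 0.01 of a read), so whole reads were recovered for edgeR 4.0.16 and DESeq2 1.42.0. Values were transformed to log2(value + 1), which understates changes of low genes, and genes with at least 10 in at least 3 libraries (10987) were compared, KO against WT, with limma 3.58.1 (intensity trend, two-sided, Benjamini-Hochberg at 0.05) in R 4.3.3. The fit was tested on simulated counts drawn with the same dispersion for every gene and with no library set apart. Changes were given only to genes above a floor on the mean value, so recovery among low genes was not tested. The fit recovered 53 of 100 genes changed by 1 log2 unit and 100 of 100 changed by 2, with 6 false calls. A gene that did not pass is thus not shown to be unchanged. Alternatives changed the pseudocount, filter, scaling, variance model, covariates, replicate block, tool and libraries.

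The 9 genes and all lists were chosen with earlier results of these data known. The rule for named genes takes the 9 genes, every called gene of a list (at most 6), the 2 lowest p of a list without calls, the called markers (at most 2 a list), Col7a1, Cd151, Krt5, Krt14, Frem1 and Grip1, and the 3 genes nearest to Itgb4 and to Frem2. Outside it, Col4a5, Col18a1, Smoc2, Tinagl1, Vwa2, Tnc, Krt15, Trp63, Sfn, Col1a1, Col1a2, Krt13, Krt4 and Mbp were named after their values were seen. Of 55421 gene IDs 55154 matched GENCODE M21, and 1 listed plakin, Eppk1, was not analysed here. A partner gene that the rule names, and the pair that holds it, are not reported here.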

Additional observations from a re-analysis of the deposited data

How the results depend on the processing

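Frem2 passed and stayed lower in KO in each of the 12 alternatives and the 6 fits without 1 library. Itgb4 passed in the 12 alternatives and in 3 of those 6 fits. Over the 9 genes, 104 of 107 values under the 12 alternatives kept their direction and side of the threshold. The exceptions were Itga6 with DESeq2, Fras1 with a weight per library, and Lama3, which was -0.20 with a weight per library. Without 1 library the genes called among the 9 numbered 1 to 2, and Lama3 lay between -0.13 and 0.24, Col7a1 between -0.012 and 0.54, and Cd151 between -0.19 and 0.29. Cd151 was 0.0030 with quantile normalisation and 0.21 with a weight per library. Over all genes 198 were called, 134 higher and 64 lower. The counts were 590, 317 and 273 with a weight per library, 82, 61 and 21 with the name style as a covariate, and 368, 216 and 152 with DESeq2. Without 1 library they ran from 68 to 186, from 48 to 129 and from 16 to 57. The cause was not tested. Fras1 was not tested with the filter at 50, which it did not pass.

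Replicate numbers are shared by the groups, but same-numbered libraries did not deviate together (correlations of deviations -0.25, 0.03 and 0.28), so they were not taken as pairs. Between other-numbered libraries these correlations ran from -0.40 to 0.41. Some libraries of different groups were closer than some of the same group. Spearman correlations were 0.963 for WT and KO replicates 3 and 0.9435 for KO replicates 1 and 2. The cause was not tested. With the replicate block 178 genes were called, 2 of the 9 passed (Itgb4 adjusted p = 0.0239, Frem2 0.0127), and Itga6 had 0.0568. The depth limits Fras1, at 20 to 57 reads a library, Hmcn1, with 1 read in KO replicate 2, and Frem1, with at most 1 read.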
